A study of Mus musculus with 8 samples.

Results

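Bola2, Coro1a, Mvp, Cdipt, Qprt, Gdpd3, Tmem219 and Tbc1d10b are 8 of the 56 annotated genes of the chromosome 7 segment that is missing from one chromosome in 16p11.2+/- mice, and they were taken from the 55032 genes of the deposited table by symbol. They were grouped by function, as genes of metabolism, membrane traffic, vault particles, the actin cytoskeleton and immune cells. Total RNA of the striatum was sequenced from 4 WT mice (wild type) and 4 16p11.2+/- mice, 1 library per mouse. All 8 mice were C57BL/6 females at postnatal day 60, and the labels name no treatment. The labels name a single difference in genotype, the deletion. The 16p11.2+/- mice carry it in every cell from conception, and the WT mice lack it. Each deleted gene is lost together with all the others of the segment, so the effect of any 1 of them cannot be told apart from that of the rest. Of the 8 genes, 7 had enough counts to be tested. In whole striatum, fewer cells of a type and less RNA per cell cannot be told apart.

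In the human genome the matching segment lies at 16p11.2, and its deletion is a recurrent cause of autism spectrum disorder and developmental delay. A gene that is transcribed independently from each chromosome is expected to give 50% of its RNA when a single copy remains, unless the remaining copy or the stability of the transcript is adjusted. The 8 proteins work in separate processes. BOLA2 carries iron-sulphur clusters in the cytosol together with glutaredoxin 3, and CDIPT makes phosphatidylinositol, the lipid from which the phosphoinositides are formed. GDPD3 is a lysophospholipase D that releases lysophosphatidic acid, and QPRT converts quinolinate of the kynurenine pathway into a precursor of NAD. TBC1D10B is a GTPase-activating protein that switches off Rab GTPases of vesicle traffic, and MVP is the main protein of vaults, the large ribonucleoprotein particles of the cytoplasm. CORO1A is an actin-binding coronin best known from leukocytes, where it restrains the Arp2/3 complex, and TMEM219 is a cell surface receptor of the insulin-like growth factor binding protein IGFBP3.

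Expression is given as FPKM, the count of a gene scaled to its length and to the depth of the library, which can be set side by side between genes. Between 15125051 and 16387993 reads were counted on genes in a WT mouse and between 15240680 and 16523429 in a 16p11.2+/- mouse. The genotypes were tested on counts by the quasi-likelihood method of edgeR over the 18294 genes that passed its expression filter, with Benjamini-Hochberg adjustment and a threshold of 0.05. Markers of medium spiny neurons, the principal striatal cell, were detected in every mouse, with a summed FPKM of 919.2 to 1545.4 in WT and 282.5 to 1443.1 in 16p11.2+/- mice. DF-1037 and DF-1062 stood apart, with medium spiny neuron scores (mean log2 CPM, where CPM are counts scaled to library size) of 6.71 and 6.28 against 8.07 to 8.83 in the other mice. The 7 oligodendrocyte markers summed to 1290.2 to 1551.4 in WT and 838.1 to 1154.0 in 16p11.2+/- mice, and none passed the test. Thalamus markers stood apart in 4 mice, WT-1063, DF-1018, DF-1037 and DF-1062 (DF marks the deletion), whose marker scores lay between 6.02 and 6.86, against 3.33 to 3.72 in the other 4. WT-1063 also had the highest choroid plexus score, 7.48, followed by WT-1015 at 4.61, with 0.88 to 3.22 in the other mice. For some results that turn on these mice, the value without 1 of them is also given.

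The promoters of the members differ widely in their content of CG dinucleotides, the sites of DNA methylation. RefSeq (GRCm38.p6) gave a promoter window, from 250 bases before to 50 bases after the transcription start, for 7 of the 8 members, all but Cdipt. For Coro1a it gave a pair of windows. A CG dinucleotide reads the same on both strands. Tbc1d10b held 51 of them in its 300 bases, a number reached by 0.7% of the 32851 mouse promoters of that length. Bola2 and Tmem219 each held 22, reached by 23.1% of promoters, and the Coro1a windows held 19 and 10. Qprt and Gdpd3 held 7 each, equal to the median of all promoters, and Mvp held 3, a number reached by 76.7% of promoters. The richest window, that of Tbc1d10b, is shown first. It is followed by the window of Tmem219, a gene of lower RNA level that also passed the test below. Last come those of Gdpd3 and Mvp, which held the fewest CG dinucleotides among the tested members with a window. All 4 windows are printed 5′ to 3′ on the strand of the gene, with each CG in capitals. They lie at chr7:127208419-127208718 on the minus strand (Tbc1d10b), chr7:126898229-126898528 on the minus strand (Tmem219), chr7:126766164-126766463 on the plus strand (Gdpd3) and chr7:127014545-127014844 on the minus strand (Mvp).
Tbc1d10b: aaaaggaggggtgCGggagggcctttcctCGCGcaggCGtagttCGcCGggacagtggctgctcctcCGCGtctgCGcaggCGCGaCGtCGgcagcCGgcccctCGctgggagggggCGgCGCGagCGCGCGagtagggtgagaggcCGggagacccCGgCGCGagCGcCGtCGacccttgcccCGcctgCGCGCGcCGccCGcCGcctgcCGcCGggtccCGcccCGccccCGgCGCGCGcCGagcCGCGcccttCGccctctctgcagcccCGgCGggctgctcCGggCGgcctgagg
Tmem219: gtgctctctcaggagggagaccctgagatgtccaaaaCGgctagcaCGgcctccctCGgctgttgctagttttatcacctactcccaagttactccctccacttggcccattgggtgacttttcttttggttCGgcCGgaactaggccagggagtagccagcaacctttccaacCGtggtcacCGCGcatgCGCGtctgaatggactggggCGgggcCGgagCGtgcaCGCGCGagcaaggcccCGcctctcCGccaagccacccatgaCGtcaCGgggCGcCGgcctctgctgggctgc
Gdpd3: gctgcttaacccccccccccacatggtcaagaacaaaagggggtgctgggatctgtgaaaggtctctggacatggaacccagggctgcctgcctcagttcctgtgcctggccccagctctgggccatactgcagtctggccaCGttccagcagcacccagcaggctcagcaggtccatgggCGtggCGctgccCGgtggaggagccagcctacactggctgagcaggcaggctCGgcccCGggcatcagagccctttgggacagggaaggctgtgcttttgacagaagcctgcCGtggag
Mvp: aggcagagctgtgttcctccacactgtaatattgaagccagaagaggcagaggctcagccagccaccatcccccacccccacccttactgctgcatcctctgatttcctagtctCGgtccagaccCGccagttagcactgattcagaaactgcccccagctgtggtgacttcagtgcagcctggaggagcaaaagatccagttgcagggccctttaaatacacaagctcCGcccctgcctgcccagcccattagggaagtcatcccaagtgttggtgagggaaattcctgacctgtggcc

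**Figure D1:**
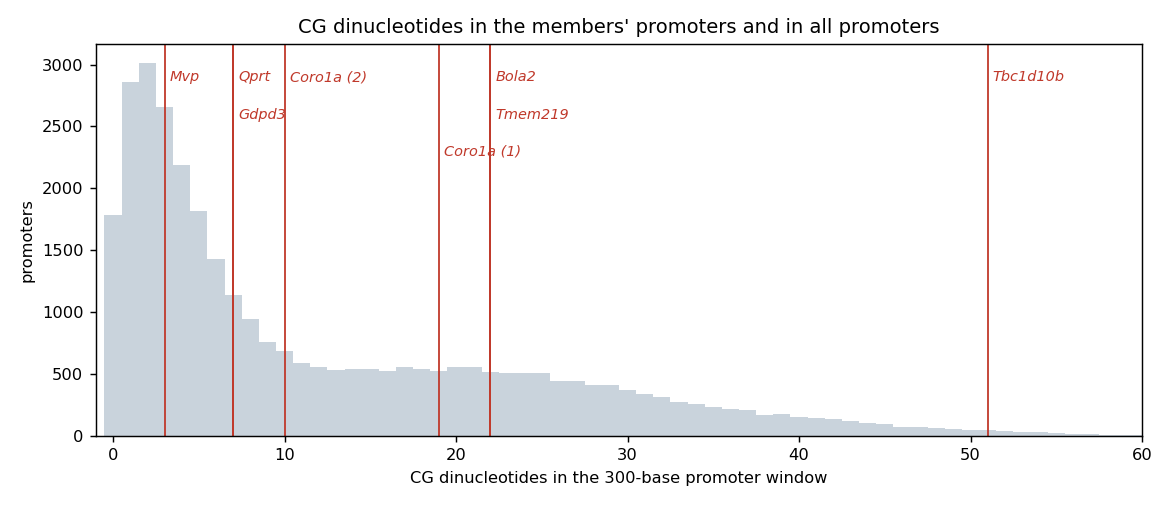
Number of CG dinucleotides (x axis) in the 300-base promoter windows of mouse genes, with the number of promoters on the y axis and the members' windows as red lines (Coro1a has 2). Tbc1d10b stands at 51 in the thin right tail, Mvp at 3 near the left peak, and Qprt and Gdpd3 at the median of 7.

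Cdipt was the most abundant of the 8 genes in WT striatum, with an FPKM of 27.9 ± 2.32 (SD, n = 4), and every WT mouse exceeded every WT value of the next gene, Tbc1d10b, at 13.7 ± 0.379. Coro1a followed at 10.9 ± 2.65 and did not stand apart from Tbc1d10b, since its highest WT mouse reached 13.7. Tmem219, at 3.25 ± 0.311, lay below all Coro1a values and above all Gdpd3 values. Gdpd3 (1.94 ± 0.718), Bola2 (1.92 ± 0.092) and Mvp (1.39 ± 0.366) were not apart, as the ranges of neighbours in this order overlapped. Qprt came last, between 0 and 0.234. For Bola2 the length used by the authors, 4398 bases, equals the full extent of the annotated gene without removal of introns, so that its FPKM per length is low for its count of 123 to 146 in WT mice. Mvp was scaled to 7627 bases, against 2292 for Tmem219 and 2186 for Gdpd3. Summed over the WT mice, Mvp had 674 counts, against 470 and 268, so its place in this order depends on these lengths.

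The estimate of every tested member was below 0 in 16p11.2+/- striatum. Over these 7 genes the log2 fold changes lay between -1.29 and -0.90 and a median of -0.93, against a median of -0.01 over all 18294 genes tested. Cdipt, Tbc1d10b, Tmem219 and Bola2 passed the threshold, 4 of the 7 members, and Mvp, Coro1a and Gdpd3 did not. Of all genes tested 0.0929%, or 17, were called lower. These were the 4 members and 13 other genes of the segment. For 5 of the 8 members, Bola2, Mvp, Cdipt, Tmem219 and Tbc1d10b, all 4 16p11.2+/- mice lay below all 4 WT mice in FPKM, as was the case for 1.62% of all genes tested. The 95% interval of the log2 fold change held -1, the value of 50%, and left out 0 for 6 of the 7 members, all but Gdpd3, as it did for 1.23% of all genes tested. Leaving out any 1 mouse lowered the number of members past the threshold, to 3 without WT-1063, to 1 or 2 without WT-1041, DF-1037 or DF-1062, and to 0 without WT-1015, WT-1061, DF-1018 or DF-1059.

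**Figure D2:**
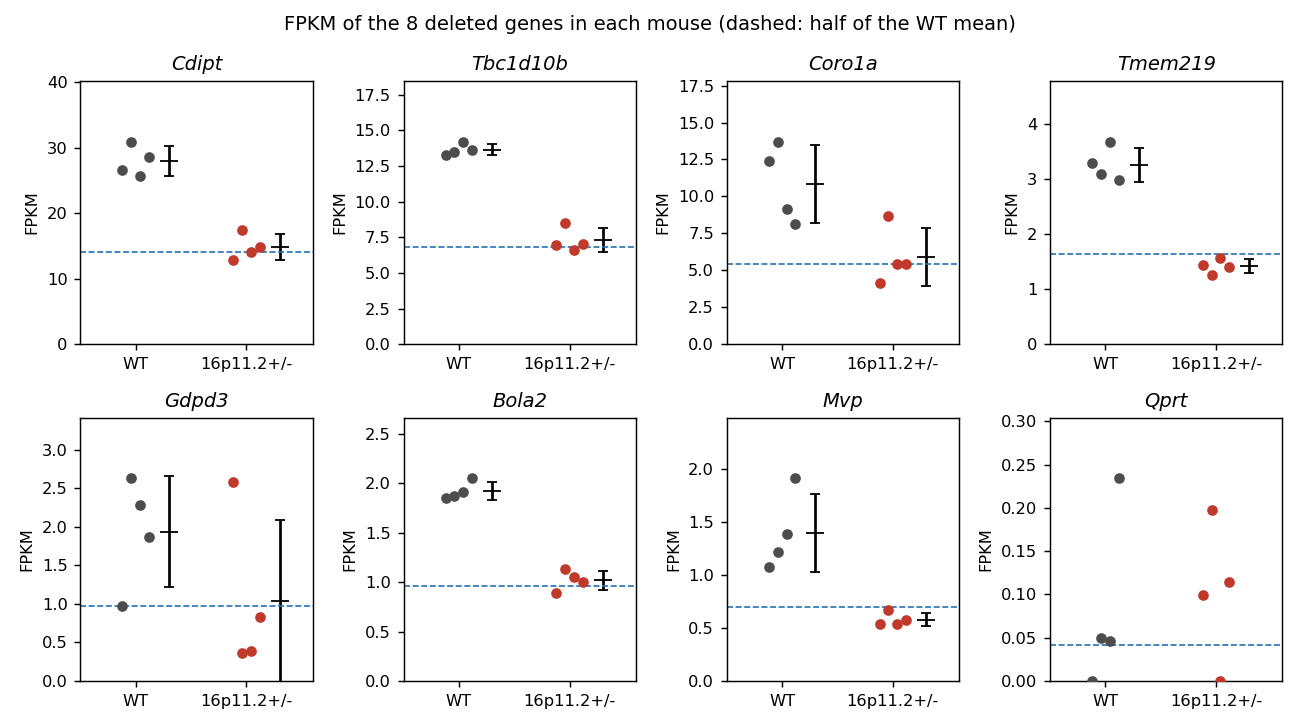
FPKM (y axis, each panel from 0 on its own scale) of the 8 genes in the 4 WT (grey) and 4 16p11.2+/- mice (red). Points are mice, black bars the mean ± SD (not drawn for Qprt; that of Gdpd3 reaches below 0 and is cut there), and dashed lines 50% of the WT mean; the genotypes do not overlap in 5 panels and overlap for Coro1a, Gdpd3 and Qprt.

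Among the metabolic genes, Cdipt (ENSMUSG00000030682, chr7:126975914-126980501 in GRCm38, GENCODE M21) encodes phosphatidylinositol synthase. Its FPKM was 26.6, 30.9, 25.7 and 28.6 in WT-1015, WT-1041, WT-1061 and WT-1063, and 12.9, 17.5, 14.0 and 14.8 in DF-1018, DF-1037, DF-1059 and DF-1062. Every 16p11.2+/- mouse was below every WT mouse, and 3 of the 4 lay above 50% of the WT mean. The 16p11.2+/- mean of 14.8 ± 1.97 (SD, n = 4) was 53.1% of the WT mean, and the genotypes differed in a two-sided exact permutation test (p = 0.0286, the smallest that 4 mice against 4 can give). The log2 fold change was -0.93 (standard error 0.10, 95% interval -1.17 to -0.70, edgeR adjusted p = 0.0131). Set against 50% of each WT value, the exact permutation p was 0.514. An antisense gene, Cdiptos, covers 6.5% of the Cdipt exons, and reads from the pair may not be separable since the strand setting of the counting is not stated.

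Bola2 (ENSMUSG00000047721, chr7:126695401-126699798), the iron-sulphur carrier, had 123, 126, 138 and 146 counts in the WT mice and 60, 76, 75 and 73 in the 16p11.2+/- mice, in the same order of mice as above. In FPKM these were 1.85, 1.87, 1.91 and 2.05 in WT against 0.895, 1.13, 1.05 and 1.0 in 16p11.2+/- striatum. The WT mice were close to each other, with a coefficient of variation of 4.79%, below the 8.66% that counting alone would give. The mean fell to 53.0% of WT (log2 fold change -0.94, standard error 0.13, edgeR adjusted p = 0.0443). All 16p11.2+/- mice were below all WT mice (exact permutation p = 0.0286), and the exact permutation p against 50% of WT was 0.343. Leaving out any 1 of the 8 mice ended the call, with adjusted p between 0.0899 and 0.258, while the log2 fold change stayed between -0.99 and -0.88. Slx1b and Coro1a, on the opposite strand, cover 8.8% of the Bola2 exons, so the limit given for Cdipt applies here too.

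Gdpd3 (ENSMUSG00000030703, chr7:126766334-126775649), the lysophospholipase D, varied most among the tested members. Its counts were 32, 88, 82 and 66 in the WT mice and 86, 12, 14 and 30 in the 16p11.2+/- mice, and its FPKM 0.968, 2.63, 2.29 and 1.87 against 2.58, 0.358, 0.394 and 0.831. DF-1018 thus had nearly the highest value of all 8 mice, while DF-1037, DF-1059 and DF-1062 had less than any WT mouse. The coefficient of variation was 101% in 16p11.2+/- mice and 37.0% in WT, where counting alone would give 16.8% and 12.2%. The ratio of means was 53.7% of WT, that of medians 29.5%, and that of means without DF-1018 27.2%. The log2 fold change was -0.90 (standard error 0.63, 95% interval -2.32 to 0.52, edgeR adjusted p = 0.859), so a change was not detectable with this spread between mice (exact permutation p = 0.229 on FPKM). Without DF-1018 it was -1.90, with an edgeR adjusted p of 0.651. The opposite strand gene Gm9967 covers 13.6% of the Gdpd3 exons.

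Qprt (ENSMUSG00000030674, chr7:127107114-127122226), the quinolinate phosphoribosyltransferase, was near the limit of detection. The WT mice had 0, 2, 2 and 10 counts and the 16p11.2+/- mice 4, 8, 0 and 5. Summed over mice, 14 of 62999890 counts in WT correspond to 0.222 CPM (exact 95% interval 0.121 to 0.373), and 17 of 63370549 in 16p11.2+/- mice to 0.268 (0.156 to 0.43). These intervals overlap and cover counting error only. Both mice with the most counts, WT-1063 and DF-1037, belong to the 4 with high thalamus scores, and the mice with 0 counts, WT-1015 and DF-1059, do not. The part of thalamic RNA in these counts was not tested. Without WT-1063 the mean FPKM of 16p11.2+/- mice was 323% of WT, and without DF-1037 it was 86.5%, against 125% with all mice. A 50% change was not detectable at this depth. The gene did not pass the expression filter of the main test, and in DESeq2, which kept it, its log2 fold change was 0.30 (standard error 1.19, adjusted p = 0.996).

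Of the trafficking genes, Tbc1d10b (ENSMUSG00000042492, chr7:127197459-127208468), the Rab GTPase-activating protein with the CG-rich promoter shown above, gave the most precise difference. In FPKM, the WT mice had 13.3, 13.5, 14.2 and 13.6 and the 16p11.2+/- mice 6.99, 8.53, 6.63 and 7.02. The WT values were close together (coefficient of variation 2.78%, with 3.15% from counting alone), and DF-1037 was the highest of the 16p11.2+/- mice. The mean of 7.29 ± 0.846 was 53.4% of the WT mean of 13.7 ± 0.379 (SD, n = 4 each). The log2 fold change was -0.93 (standard error 0.09, 95% interval -1.14 to -0.71), with an edgeR adjusted p of 0.00979. It passed the threshold in 14 of 20 alternative settings, more than any other member. Against 50% of WT the exact permutation p was 0.4. Its exons overlap no other annotated gene.

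Mvp (ENSMUSG00000030681, chr7:126986860-127014621), which encodes the vault protein, had, with Tmem219, the lowest ratios to WT among the tested members. Its FPKM was 1.07, 1.22, 1.39 and 1.91 in the WT mice and 0.533, 0.666, 0.54 and 0.571 in the 16p11.2+/- mice. The 16p11.2+/- mice were close together and all below 50% of the WT mean (0.697), whereas the WT mice spread over a coefficient of variation of 26.2%, with WT-1063 highest. The ratio of means was 41.4%, or 47.2% without WT-1063, where Tmem219 was lower at 42.1%. The log2 fold change of -1.29 (standard error 0.20, 95% interval -1.74 to -0.84) did not pass the threshold in edgeR (adjusted p = 0.0986), and passed it in DESeq2 (adjusted p = 1.31e-05) and in edgeR with the thalamus score as a covariate (adjusted p = 0.0375). On FPKM the genotypes did not overlap (exact permutation p = 0.0286), and the exact permutation p against 50% of WT was 0.286. With the thalamus covariate the log2 fold change was -1.46 (standard error 0.17), and its 95% interval lay below -1, the value of 50%. Mvp shares 4.5% of its exons with Pagr1b on the same strand.

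In the immune group, Tmem219 (ENSMUSG00000060538, chr7:126886171-126922917), the IGFBP3 receptor, had an FPKM of 3.29, 3.08, 3.67 and 2.97 in the WT mice and of 1.43, 1.25, 1.56 and 1.40 in the 16p11.2+/- mice. All 4 16p11.2+/- mice were below 1.63, which is 50% of the WT mean. The mean fell to 43.3% of WT (log2 fold change -1.23, standard error 0.15, 95% interval -1.56 to -0.89, edgeR adjusted p = 0.0217). The spread within each genotype was no larger than counting error allows in 16p11.2+/- mice (8.91% against 14.0%) and close to it in WT (9.57% against 9.23%). Set against 50% of WT, the exact permutation p was 0.0857, the lowest of the members and above the threshold. Gm20650, on the opposite strand, covers 8.6% of the exons.

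Coro1a (ENSMUSG00000030707, chr7:126699773-126707787), the coronin, varied between mice of a genotype far beyond counting error. Its FPKM was 12.4, 13.7, 9.14 and 8.16 in the WT mice and 4.15, 8.69, 5.41 and 5.41 in the 16p11.2+/- mice, so that DF-1037 exceeded WT-1063 and the other 3 16p11.2+/- mice lay below all WT mice. The coefficient of variation was 24.4% in WT and 32.8% in 16p11.2+/- mice, where counting alone would give 4.6% and 6.2%. The mean was 54.4% of WT, with a log2 fold change of -0.90 (standard error 0.25, 95% interval -1.46 to -0.34). It did not pass the threshold (edgeR adjusted p = 0.859, and exact permutation p = 0.0571 on FPKM). With 1 mouse left out, the log2 fold change lay between -1.14 (without DF-1037) and -0.76 (without DF-1018). Bola2, on the opposite strand, covers 0.9% of the Coro1a exons.

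The Coro1a values ran beside the score of cortical glutamatergic neuron markers (Slc17a7, Neurod6, Tbr1 and Emx1). This score was 5.25, 5.44, 4.14 and 1.279 in WT-1015, WT-1041, WT-1061 and WT-1063 and 0.94, 5.65, 4.03 and 1.51 in DF-1018, DF-1037, DF-1059 and DF-1062. In both genotypes the mouse with the highest score had the most Coro1a RNA and the mouse with the lowest score had the least. The 4 markers, of which Emx1 was at 0 in DF-1018, had a summed FPKM of 20.85 to 100.6 in WT and 10.61 to 138.0 in 16p11.2+/- mice. With the cortical score as a covariate the log2 fold change of Coro1a was -0.74, and its standard error fell from 0.25 to 0.13. Its edgeR p fell from 0.00566 to 0.000475, which did not pass the adjustment over all genes (adjusted p = 0.395). In the same fit Gdpd3 was at -1.56 (standard error 0.64, edgeR adjusted p = 0.917) and Mvp at -1.32 (standard error 0.20, edgeR adjusted p = 0.151). The part of cortical RNA in these values was not tested. The lymphocyte markers Cd3e, Cd3g, Cd3d, Cd79a and Cd79b were all too low to be tested, with a summed FPKM of 0.126 to 0.202 in WT and 0.263 to 0.551 in 16p11.2+/- mice. The 10 microglia markers were at 119.0 to 159.3 in WT and 101.5 to 149.8 in 16p11.2+/- mice, none past the threshold.

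**Figure D3:**
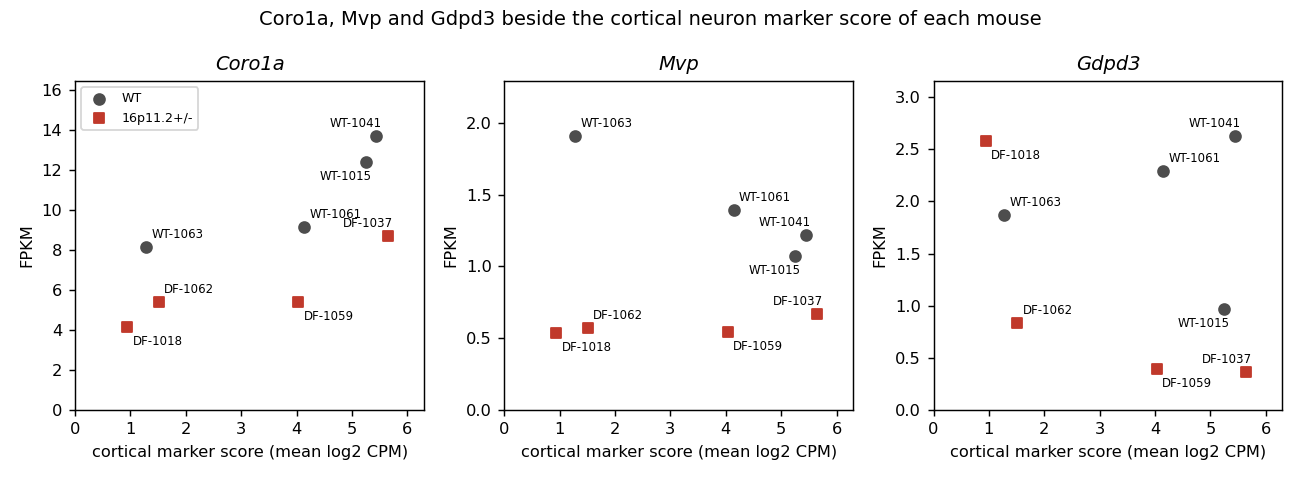
FPKM of Coro1a, Mvp and Gdpd3 (y axes from 0) in each of the 8 mice against the mean log2 CPM of 4 cortical neuron markers (x axis), with WT as grey circles and 16p11.2+/- as red squares. For Coro1a the lowest and the highest mouse of each genotype are also those with the lowest and the highest score; Mvp is highest in WT-1063 at a score of 1.279, and Gdpd3 in DF-1018 and WT-1041 at scores of 0.94 and 5.44.

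The thalamus score divides the mice into 3 WT and 1 16p11.2+/- mouse with low scores and 1 WT and 3 16p11.2+/- mice with high scores. Within the mice with low scores all 7 members had negative log2 fold changes, between -2.32 and -0.86. Within those with high scores all 7 were negative as well, between -1.67 and -0.41. The value nearest to 0 was that of Coro1a in the high mice, where WT-1063 is the sole WT mouse. These splits leave 1 mouse in an arm, which is assumed to vary like the others, and no member passed the threshold in either. With the thalamus score as a covariate, Mvp and Tbc1d10b passed the threshold and Cdipt (adjusted p = 0.0517), Tmem219 (0.0836) and Bola2 (0.147) did not, with log2 fold changes between -1.46 and -0.84 over the 7 members.

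Whether members fell by different amounts was examined within each mouse, as the difference between the log2 CPM of each pair among the 7 tested members. Mvp fell by 0.32 more than Bola2 and by 0.31 more than Tbc1d10b on the log2 scale, and Tmem219 by 0.26 more than Tbc1d10b. The exact permutation p of each of these pairs was 0.0857, the lowest of the 21 pairs, and the Benjamini-Hochberg adjusted p was 0.6. None of the 21 pairs passed the threshold, and in none were the genotypes apart. At 4 mice against 4 a pair cannot go below 0.0286 before adjustment, so equal reductions are not shown by this test.

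The rest of the deleted segment gave the setting of these values. The 27 other tested genes of the segment, from Slx1b to Sept1 (544 kb), all had negative estimates, with a median log2 fold change of -0.99 (50.4% of WT) and a range of -1.26 to -0.25, against a median of 52.3% of WT for the members. Of these 27 genes 13 passed the threshold. Within 500 kb outside the segment, 0 of 17 tested genes before it and 0 of 24 after it passed, with a median log2 fold change of 0.02 on each side. Gm6939, the tested gene next to the start, was at 0.14 on the log2 scale (standard error 0.23), and Zfp553, next to the end, at 0.20 (standard error 0.10, edgeR adjusted p = 0.859).

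**Figure D4:**
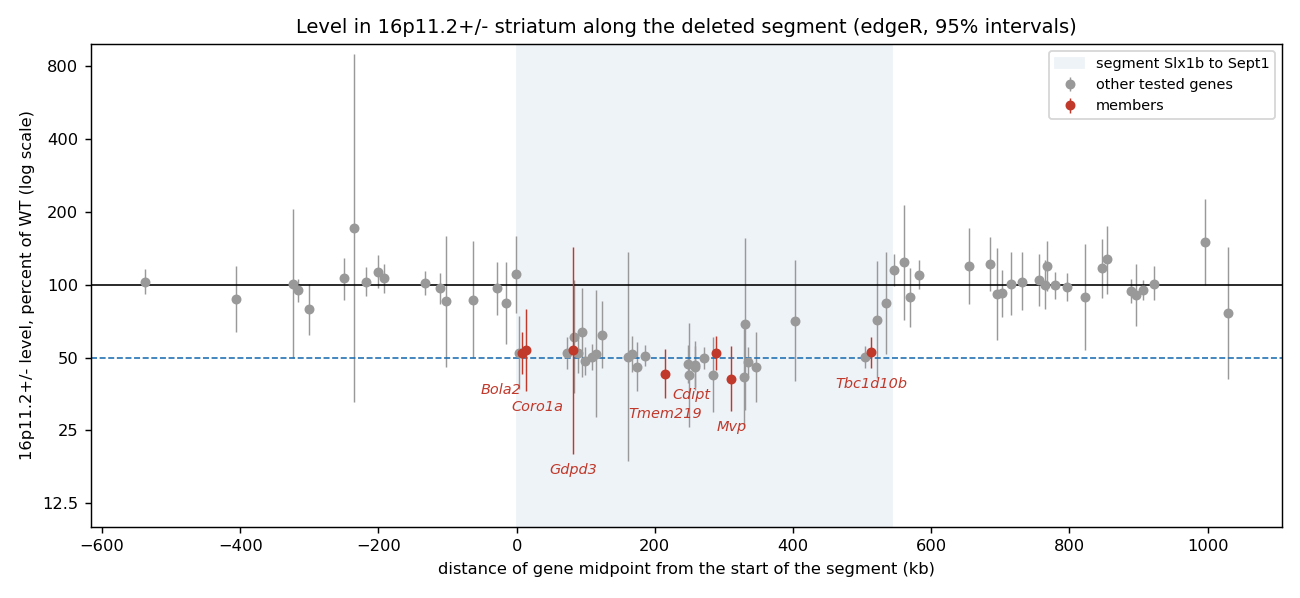
Level in 16p11.2+/- striatum as a percent of WT (log axis, edgeR estimate with 95% interval) of each tested gene within 500 kb of the deleted segment, against the distance of its midpoint from the start of the segment in kb; members are red, other genes grey, and the segment is shaded. The 7 members lie between 40.9% and 53.6% around the dashed line at 50%, and genes outside the segment lie around the solid line at 100%.

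Genes whose expression followed that of a member over the 8 mice were sought among all tested genes, by Pearson's r of log2 CPM. The value is taken over both genotypes together, so a gene that differs between genotypes scores high for that reason alone, and no p is given. Cdipt was nearest to Maz (r = 0.995), Ypel3 (0.989) and Bola2 (0.98), Tbc1d10b to Maz (0.984), Aldoa and Bola2, and Bola2 to Aldoa (0.983), Maz (0.982) and Tbc1d10b (0.981), all of them genes of the segment. Tmem219 was nearest to Ino80e and Cd2bp2 of the segment (0.991 each) and to Gm44136 (0.986), which lies outside it. Among the 20 nearest genes, 15 belonged to the segment for Tbc1d10b, 14 each for Cdipt and Bola2, 13 for Tmem219 and 8 for Mvp, whose nearest were Bola2 (0.963), Pkd2l1 (0.946) and Rsu1 (0.943).

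For Coro1a a single gene of the segment, Slx1b (r = 0.968), was among the 20, between N4bp3 (0.973) and Gm15265 (0.958). None was for Gdpd3, which lay nearest to Gm44997 (0.973), Zfp341 (0.923) and Gm47817 (0.921). The nearest genes of Qprt, 2510039O18Rik (0.988), Fzd10 (0.975) and Gm37107 (0.974), rest on at most 10 Qprt counts in a mouse. The median r to the tested genes of the segment was 0.791 for Coro1a, 0.473 for Gdpd3 and -0.148 for Qprt, and lay between 0.853 and 0.91 for Bola2, Mvp, Cdipt, Tmem219 and Tbc1d10b.

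Paralogues and partners of the 8 proteins that lie outside the segment were examined in the same fit, as 9 lists of 123 genes in all, of which 113 were tested. By edgeR 0 of the 113 passed the threshold, as did 0 by DESeq2 and 0 by limma-voom. Of all 18294 genes 20 passed it in edgeR, 17 lower and 3 higher. The 17 were 4 members and 13 other genes of the segment, so a count of 0 lies near the share over all genes. In the lists 5 genes had an unadjusted p under 0.05 (3 lower, 2 higher), where 790 of all 18294 genes did. The median log2 fold change of the 113 was 0.02, against -0.01 over all genes. Of the 18 tested paralogues 10 had negative and 8 positive values, with a median of -0.02. The BolA proteins of mitochondria gave -0.19 for Bola1 (standard error 0.16) and 0.12 for Bola3 (0.14). Among the other coronins the values were -0.05 for Coro1b, 0.15 for Coro1c, 0.15 for Coro2a, -0.12 for Coro2b, 0.52 for Coro6 (standard error 0.36) and -0.22 for Coro7. Coro2b and Coro1b were the most abundant of them, both above Coro1a, with Coro2b at an FPKM of 29.3 in WT. Without WT-1063, Coro6 was at 0.93 (standard error 0.29) and Coro2a at 0.38 (standard error 0.22).

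The phospholipid synthases related to Cdipt were near 0, with -0.01 for Crls1, -0.02 for Chpt1, 0.06 for Cept1 and -0.07 for Selenoi (standard errors 0.10 to 0.12). In the glycerophosphodiesterase family Gdpd1 was at 0.06 and Gdpd5 at -0.12, Gde1, the most abundant at an FPKM of 68.8 in WT, was at -0.20 (standard error 0.09), and Gdpd2, a low gene, at 0.80 (standard error 0.39, edgeR adjusted p = 0.859). Tbc1d10a gave 0.03 and the less abundant Tbc1d10c -0.79 (standard error 0.39, adjusted p = 0.859). No paralogue rose or fell past the threshold, which 20 of all 18294 genes tested passed.

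Among all 18294 genes tested, 9484 values were negative and 8810 positive, and no list was tested as a set. In the pathway lists, 14 of 18 iron-sulphur assembly genes had positive values with a median of 0.06. Iscu, the scaffold protein, was at 0.31 (standard error 0.16), while Ciao1 of the cytosolic machinery was at -0.03. The Arp2/3 complex, on which coronins act, had 8 of 10 negative values with a median of -0.16, among them Actr2 at -0.13 and Arpc2 at -0.23 (standard error 0.15). The vault partners Parp4 and Tep1 were at -0.21 and 0.20 (standard error 0.16 each). For phosphatidylinositol supply 13 of 18 values were positive (median 0.07), with Cds2, the CDP-diacylglycerol synthase that makes a substrate of CDIPT, at 0.26 (standard error 0.12, adjusted p = 0.859) and the transfer protein Pitpna at 0.19. Nmnat2 (0.28) and Nadk (-0.03) stood for the 16 of 21 kynurenine and NAD genes that were tested, whose median was 0.00.

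Of the lysophospholipase D list (median -0.03 over 9 genes), Gpcpd1 was at -0.09 and Enpp2, which encodes autotaxin, at -2.22 (standard error 0.82, adjusted p = 0.859). Its FPKM was 731 in WT-1063 and 50.3 to 132 in the other WT mice, and in the same mouse the choroid plexus markers, of a tissue known for Enpp2, had their highest score. Without WT-1063 the value of Enpp2 was -0.66 (standard error 0.37). The IGF list had the lowest median, -0.45 over 11 of 15 genes, with 9 negative values. Igfbp2 (-1.93, standard error 0.93) was likewise high in WT-1063, at 43.1 against 2.21 to 5.41 in the other WT mice, and without this mouse it was at -0.06 (standard error 0.46). Igfbp5 was at -0.45 (standard error 0.15, adjusted p = 0.859). Over the 11 Rab GTPases the median was 0.10, with Rab3a at 0.16 and Rab3c at 0.41 (standard error 0.23), or 0.63 without WT-1063. The part of choroid plexus or thalamic RNA in these values was not tested.

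**Figure D5:**
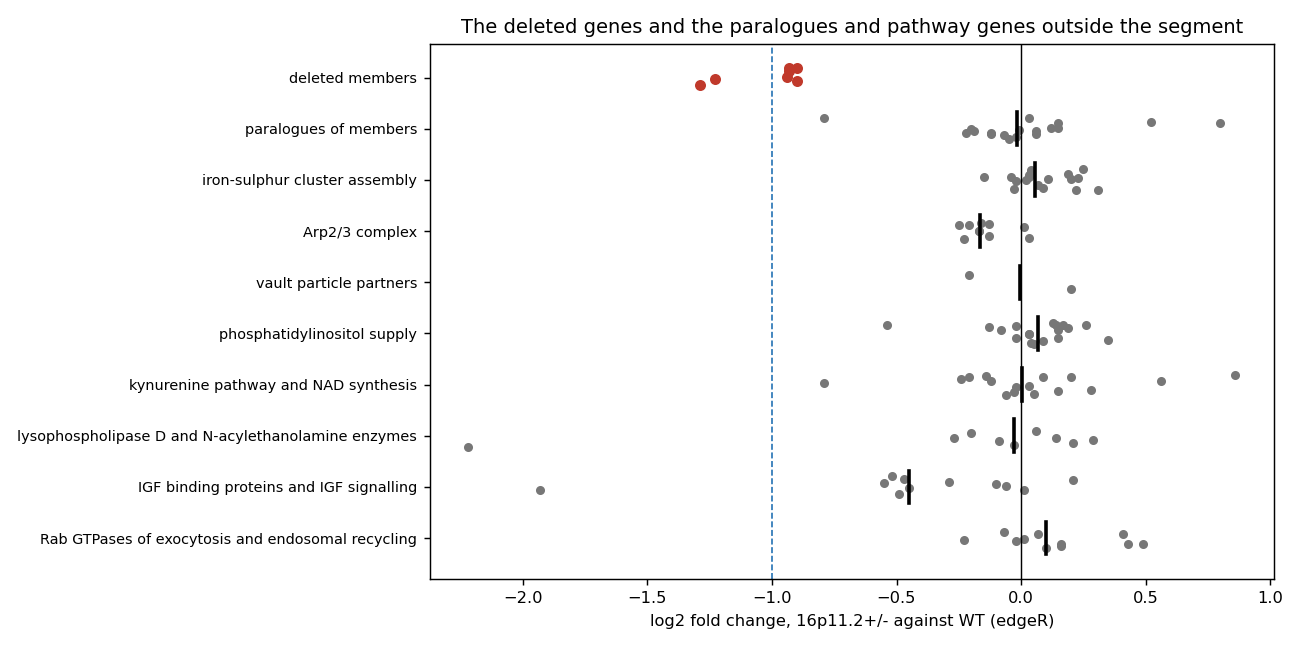
Log2 fold change (edgeR, 16p11.2+/- against WT, x axis) of the 7 tested members (red, top row) and of the tested paralogues and pathway genes outside the segment (grey points, 1 row per list, black bar the median). The members lie between -1.29 and -0.90 around the dashed line at -1, and the list medians lie between -0.45 and 0.10; the points left of -1.5 are Enpp2 and Igfbp2.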

How the data were processed

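RNA sequencing of striatum from 8 mice, 4 of each genotype, was compared. The authors trimmed and mapped the reads (Hisat2 2.1.0), counted them on genes (Htseq-count) and deposited raw counts and FPKM for each mouse. FPKM was found to be the count over a gene length, the same in all mice, and over the library total. The submitters' processing notes name Bowtie 0.12.2 and the builds mm8 and mm9 instead. The build and the strand setting of the counting are not given in the methods. The lengths equal those of GENCODE M21 (GRCm38) for 95.8% of 17562 genes, and positions are from that annotation. The deposited table of the authors' comparison gives a signal per group, which is a mean of normalized counts, a log2 fold change, a p-value and an adjusted p-value, and was not used, nor was the summary of FPKM in bins.

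The quasi-likelihood test of edgeR 4.0.16 (R 4.3.3) was run on the counts with TMM factors and the filterByExpr defaults, which are a minimum count of 10 in enough mice and at least 15 in total. P-values were adjusted over 18294 genes with the Benjamini-Hochberg method. At depths of 15125051 to 16523429 counts per mouse, 7 of the 8 members were tested, so 21 pairs of members were compared. Exact two-sided permutation tests on FPKM used all 70 assignments, against WT and against 50% of each WT value. CPM on the log2 scale used a prior count of 2. Libraries of a genotype differed by 8.88 to 62.94 times sampling noise, so each was 1 sample, and p-values measure the spread between these mice. Expected counting variation is that of Poisson counts.

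The genes named were the members, every tested paralogue, the 2 most abundant genes of each other list and any past the threshold, the tested gene next to each end of the segment, and the 3 genes nearest to each member by Pearson's r. The members and lists were chosen with earlier results of these data known, and no list was tested as a set. After the data were seen, 1 gene was left out of the cortical and 1 of the lymphocyte marker list for a reason other than its values, and neither is reported here. The thalamus list was not altered. As alternatives, the counts were tested with DESeq2 1.42.0 and limma-voom, and log2 FPKM plus 1 or 0.1 with limma-trend (limma 3.58.1). RLE factors, library totals, other filters, marker scores as covariates, a split of the mice by thalamus score and the omission of each mouse were also tried. The edgeR, DESeq2 and limma-voom fits were run first on simulated counts. Lipidomics and imaging of the study were not analysed here.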

Additional observations from a re-analysis of the deposited data

Results flagged for a closer look

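In a group of 4 mice a value was marked when its gap to the nearest other mouse, divided by the range of the group, exceeded Dixon's 95% critical value for 4 values. Chance marks about 1 in 20 groups, and 14 of 106 groups of values were marked. None belonged to a member. The cause was not tested for any of them.

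WT-1063 accounts for 8. Its thalamus marker score of 6.73 compares with 3.33 to 3.56 among the rest of the WT (gap over range 0.93). Among genes of the members' pathways it stood apart for Enpp2 (731 FPKM against 50.3 to 132, 0.88), Igfbp2 (43.1 against 2.21 to 5.41, 0.922), Arpc2 (57.5 against 68.9 to 70.2, 0.9), Pitpna (69.1 against 50.5 to 52.8, 0.876), Rab3a (119 against 108 to 109, 0.843) and Rab3c (62.4 against 35.8 to 40.1, 0.839). The paralogue Bola1 was at 5.2 in this mouse, against 4.09 to 4.23 (0.878).

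DF-1062 stood apart from the other 16p11.2+/- mice for Coro1c (9.52 FPKM against 6.8 to 7.24, 0.84), Parp4 (2.09 against 1.9 to 1.92, 0.913) and Cds2 (100 against 67.9 to 69.5, 0.949). Bola3 was high in DF-1059 (4.0 against 3.19 to 3.27, 0.9) and Igfbp2 in DF-1037 (6.81 against 2.16 to 2.72, 0.88). Gm6939, next to the start of the segment, was low in WT-1061 (2.26 against 3.58 to 3.7, 0.915).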

How the results depend on the processing

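None of the 7 tested members changed direction under any of the 20 alternative settings of the test across genes. Beside the 4 members past the threshold in the reported test, 5 passed with DESeq2 (Mvp added), 4 with limma-voom, RLE factors or a filter of 10 counts in every mouse, and 3 with limma-trend at either pseudocount, library totals or a filter of 1 count. The number fell to 2 with the thalamus score as a covariate, to 2 with the cortical score, and to 0 within the mice of low or of high thalamus score, where an arm has 1 mouse. Leaving out 1 mouse left between 0 and 3 members past the threshold, 3 without WT-1063, 2 without DF-1037, 1 without WT-1041 or DF-1062 and 0 without WT-1015, WT-1061, DF-1018 or DF-1059. Tbc1d10b passed in 14 of 20 settings, Cdipt in 11, Tmem219 in 9, Bola2 in 4, Mvp in 2, and Coro1a and Gdpd3 in 0. Members without overlap in FPKM numbered 5 to 6 with a mouse left out. The interval held 50% for 7 members in each such fit, and for 6 with the thalamus covariate, all but Mvp. Genotypes were apart in 0 of 21 pairs of members, and in up to 2 with a mouse left out. No gene of the pathway lists passed in any setting, where at most 24 of all genes were called lower and 5 higher (DESeq2). No paired analysis was possible because each mouse number occurs in 1 genotype only. A batch is not named in the labels. Qprt, tested by DESeq2 and with the filter of 1 count, was at 0.30 and 0.27 with standard errors of 1.19 and 0.96, and its percent of WT, 125 with all mice, lay between 86.5 and 323 with a mouse left out. Counts of 12 to 235 per mouse for Bola2, Mvp, Gdpd3 and Tmem219, and of 0 to 10 for Qprt, limit what a 50% change can show.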

Other observations

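Casp8, an apoptosis protease of the IGF list that was named after its values were seen, was lower in all 4 16p11.2+/- mice than in all 4 WT mice, at an FPKM of 0.75 against 1.06 (log2 fold change -0.52, standard error 0.20, edgeR adjusted p = 0.859). The other genes of the lists with an unadjusted p under 0.05, beside Enpp2 and Igfbp5, were Pitpnm1, a phosphatidylinositol transfer protein (0.35, standard error 0.14), and Rab27b, a GTPase of vesicle release (0.43, standard error 0.18), each with an edgeR adjusted p of 0.859 and with overlapping genotypes.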
